A study of Mus musculus with 17 samples.

Results

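The strongest H3K27ac peaks at the ends of protein-coding genes in mouse hypothalamus are described here. They were selected on 2 properties: a fold enrichment of 15 or more, as the authors' peak caller gave it, and a summit (the highest point of a peak) within 1 kb of either end of the span of a protein-coding gene. The rule found 1215 peaks of 183678 in the deposited list, build mm10. A fold of 15 or more was reached by 1470 peaks, or 0.8% of the list. Of the 16771 peaks with a summit at a coding gene end, the 1215 strong peaks made up 7.24%. They lay at the ends of 1416 of 21887 protein-coding genes, or 6.47%. Since fold chose the members, the folds below describe them and nothing is read from these shares.

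The list belonged to 3 bulk CUT&Tag libraries for H3K27ac, titled as biological replicates. CUT&Tag uses an antibody to bring the transposase Tn5 to marked chromatin, so that DNA near the mark is cut and sequenced. The series also held 7 Paired-Tag DNA and 7 Paired-Tag RNA sub-libraries, which read H3K27ac and H3K27me3 together with RNA in single nuclei and were not analysed here. All 17 samples came from hypothalamus, and their strain, sex, age and treatment were not stated in the labels used here. A single list without values per library and without read counts was shared by the 3 libraries. The depth behind each peak is therefore unknown, no spread between animals could be given, and no difference between groups of peaks was tested. Of all 21887 coding genes 14386 had an end peak, beside 23 of 24 pan-neuronal, 20 of 26 hypothalamic transcription factor, 9 of 16 neurotransmitter identity, 13 of 15 astrocyte, 9 of 15 endothelial, 7 of 14 mural and fibroblast and 1 of 13 blood and lymphocyte genes. In a bulk list, more cells with a mark and more mark per cell cannot be told apart.

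H3K27ac is the acetyl mark on lysine 27 of the histone H3 tail, placed mainly by the acetyltransferases p300 and CBP. It is found on the nucleosomes that flank active promoters and enhancers. Promoters of genes that every cell uses are often CpG islands, stretches rich in CG dinucleotides that stay unmethylated, and many hold sites for ETS factors, NRF1, YY1 or CREB.

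The promoters of 7 member genes are shown because they carry the highest folds, the highest fold with each of 5 motif classes, or the single tissue gene among the members. Sequences are from RefSeq promoters of GRCm38.p6 (the assembly that mm10 denotes), 5′ to 3′ on the gene's strand, with 250 bases before the annotated start and 50 after it. Capitals mark matches, on either strand, to CCGGAAG (ETS), GCATGCGC (NRF1), TGACGTCA (CRE, bound by CREB), AAGATGGCG (YY1) and ACTACAATT (ZNF143). Lipo3 lies at chr19:33590262-33590561 (minus strand), Ldah at chr12:8207943-8208242 (plus), Lrr1 at chr12:69168564-69168863 (plus) and N6amt1 at chr16:87353935-87354234 (plus). Mrpl35 lies at chr6:71823735-71824034 (minus), Kbtbd7 at chr14:79426261-79426560 (plus) and Elavl4 at chr4:110351862-110352161 (minus).
Lipo3: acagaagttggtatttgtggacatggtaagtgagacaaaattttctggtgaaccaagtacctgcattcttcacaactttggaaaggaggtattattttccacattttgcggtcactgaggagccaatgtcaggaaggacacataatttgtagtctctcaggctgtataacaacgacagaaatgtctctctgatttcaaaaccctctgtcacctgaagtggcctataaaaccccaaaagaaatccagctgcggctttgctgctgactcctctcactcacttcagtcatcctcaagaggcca
Ldah: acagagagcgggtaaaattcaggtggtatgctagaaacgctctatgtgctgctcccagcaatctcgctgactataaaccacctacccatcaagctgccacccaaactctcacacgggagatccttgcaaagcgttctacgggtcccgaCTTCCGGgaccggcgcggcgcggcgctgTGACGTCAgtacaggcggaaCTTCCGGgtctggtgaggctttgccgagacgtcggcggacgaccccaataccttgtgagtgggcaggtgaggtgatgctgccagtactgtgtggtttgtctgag
Lrr1: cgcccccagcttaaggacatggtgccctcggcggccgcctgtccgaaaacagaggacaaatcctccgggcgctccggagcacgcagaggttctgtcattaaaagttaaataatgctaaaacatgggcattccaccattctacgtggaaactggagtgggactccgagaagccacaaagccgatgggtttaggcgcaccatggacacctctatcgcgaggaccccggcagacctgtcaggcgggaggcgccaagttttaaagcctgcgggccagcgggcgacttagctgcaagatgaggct
N6amt1: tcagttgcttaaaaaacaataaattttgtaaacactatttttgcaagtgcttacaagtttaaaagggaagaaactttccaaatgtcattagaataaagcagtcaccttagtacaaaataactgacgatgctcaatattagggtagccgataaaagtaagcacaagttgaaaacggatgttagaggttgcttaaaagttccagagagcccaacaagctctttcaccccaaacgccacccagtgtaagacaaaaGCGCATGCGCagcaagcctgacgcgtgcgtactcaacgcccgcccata
Mrpl35: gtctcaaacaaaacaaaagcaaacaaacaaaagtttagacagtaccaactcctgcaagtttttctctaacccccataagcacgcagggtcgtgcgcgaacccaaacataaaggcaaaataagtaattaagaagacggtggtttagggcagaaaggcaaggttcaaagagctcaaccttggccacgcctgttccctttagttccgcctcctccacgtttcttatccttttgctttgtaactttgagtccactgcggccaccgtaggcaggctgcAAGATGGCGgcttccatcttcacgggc
Kbtbd7: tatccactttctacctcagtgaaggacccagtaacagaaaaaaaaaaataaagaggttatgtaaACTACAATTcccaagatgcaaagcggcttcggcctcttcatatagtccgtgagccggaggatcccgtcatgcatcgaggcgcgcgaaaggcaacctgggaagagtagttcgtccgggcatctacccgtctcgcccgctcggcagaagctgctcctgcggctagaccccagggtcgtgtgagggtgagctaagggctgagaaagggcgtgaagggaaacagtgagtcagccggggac
Elavl4: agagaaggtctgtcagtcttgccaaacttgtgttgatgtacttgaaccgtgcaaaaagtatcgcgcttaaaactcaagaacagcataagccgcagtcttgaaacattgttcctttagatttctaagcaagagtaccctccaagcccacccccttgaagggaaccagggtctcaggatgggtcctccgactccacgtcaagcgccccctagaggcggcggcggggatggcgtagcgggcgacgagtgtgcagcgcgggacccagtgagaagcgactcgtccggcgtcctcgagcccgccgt

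The Ldah promoter held the ETS letters at 102 and 54 bases before the start, both on the opposite strand (CTTCCGG), with a CRE match between them 74 bases before the start. N6amt1 held overlapping NRF1 matches that began 2 and 4 bases after the start, in an otherwise AT-rich window with 41.0% GC. In Mrpl35, a gene of the mitochondrial ribosome, the YY1 letters began 23 bases after the start, and in Kbtbd7, which encodes a BTB-Kelch protein, the ZNF143 letters began 186 bases before it. Lipo3, Lrr1 and Elavl4 held none of the 5 motifs in this window. The Lipo3 window had 43.7% GC and a CpG ratio, the observed over the expected number of CG dinucleotides, of 0.211, against 0.874 for Ldah and 0.944 for Elavl4. A match is a run of letters and does not show that a factor binds there.

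Folds among the members had a median of 16.6 (quartiles 15.8 to 18.05) and reached 27.97, against a median of 6.12 for the 15556 other peaks at coding gene ends and 3.18 for all peaks. The members just inside the threshold were Zbtb24 (15.006), the shared peak of Stard6 and 4930503L19Rik (15.004), the shared peak of Ecd and Fam149b (15.002) and Dtd2 (15.001). Just outside lay Macrod2 (14.999), the mitochondrial ribosomal gene Mrps15 (14.998), Aldh18a1 (14.997) and the initiation factor gene Eif2b3 (14.996). No gap in fold separated the members from the peaks below them. By significance the groups overlapped: the −log10 q of members ran from 166 to 1211 with a median of 406, against a highest value of 884 and a median of 92.1 for the other gene-end peaks. Hdac2, a histone deacetylase gene, carried the highest −log10 q of the whole list, 1211, at a fold of 17.06.

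The peak of highest fold in the list lay at Lipo3, a gene of the acid lipase family, on chromosome 19 from 33589519 to 33590221, with a fold of 27.97. Its summit was 525 bp downstream of the annotated Lipo3 start, farther than at most members. The Lipo genes are similar copies in a cluster, so the source of these reads is uncertain. Ldah, which encodes a hydrolase of lipid droplets, followed with 27.81 at chromosome 12, 8207901 to 8208530, and a summit 26 bp downstream of the start. Lrr1, a substrate receptor of a cullin ubiquitin ligase, had 26.76 at chromosome 12, 69168311 to 69169133. Nup85, a subunit of the nuclear pore, had 26.6 at chromosome 11, 115563995 to 115564808. Exo1, an exonuclease of DNA mismatch repair, had 26.43 at chromosome 1, 175880353 to 175881175. These 5 peaks were 630 to 823 bp wide.

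The other 15 of the 20 peaks of highest fold lay at genes of varied function. Fancl, the ubiquitin ligase of the Fanconi anaemia repair pathway, had a fold of 25.21 with no other peak within 10 kb. Mlh3, a mismatch repair protein, had 23.76. Bet1, a SNARE protein of traffic between the endoplasmic reticulum and the Golgi, had 24.81, and Yipf5 and Gorab, both Golgi proteins, had 24.79 and 24.06. Alkbh8, which modifies the wobble base of certain tRNAs, had 23.83 with a summit 358 bp downstream of its start. N6amt1, a methyltransferase whose targets include a translation release factor, had 24.73, and Cox16, an assembly factor of cytochrome c oxidase, had 24.43. The peak of 23.58 lay at the ends of both Mrpl44, a mitochondrial ribosomal gene, and Wdfy1, and so cannot be given to either. The remaining peaks of this group were 2310009B15Rik (25.23), Ccdc181 (24.92), Zfp329 (24.2), Smim8 (24.01), Zpbp2 (23.48), a gene known for its role in sperm, and Commd10 (23.45). These 20 peaks were chosen by fold alone.

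Strong peaks were of middling width as called. Their median width was 1060 bp (quartiles 911 to 1206, range 438 to 1900), against 1081 bp (625 to 1485, range 147 to 3926) for the other gene-end peaks. Whether members form broader domains together with nearby peaks was not tested. Across all gene-end peaks, width was largest at intermediate fold. The median was 449 bp at a fold under 3, 866.5 bp from 3 to 6, 1478 bp from 6 to 9, 1362 bp from 9 to 12 and 1200 bp from 12 to 15. Within the members it was 1092 bp from 15 to 18 (899 peaks), 983.5 bp from 18 to 21 (244 peaks) and 874 bp at 21 or more (72 peaks). The narrowest members were the peak shared by Ermard and Tcte3 (438 bp), Clcc1, a chloride channel gene (457 bp), and Eif2d, a translation factor gene (555 bp). Among the widest were Mcmdc2, a meiotic recombination gene (1900 bp), and the peak shared by Sh3bp5l and Zfp672 (1833 bp).

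**Figure D1:**
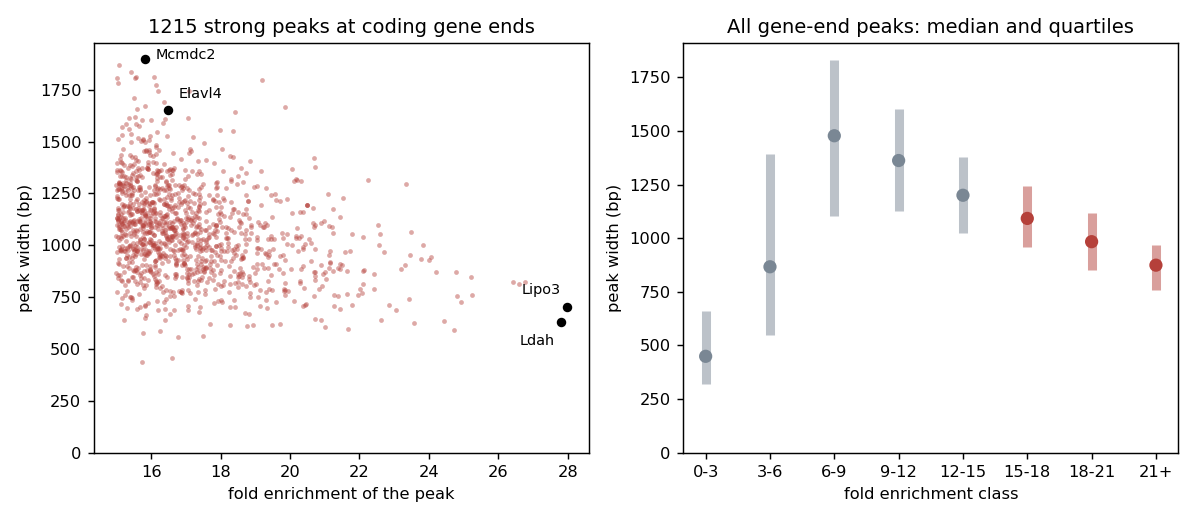
Left, peak width in bp against fold enrichment for each of the 1215 strong peaks, with 4 peaks named. Right, median (point) and quartiles (bar) of width by fold class over all 16771 gene-end peaks, members in red; the median is highest, 1478 bp, at a fold of 6 to 9 and falls to 874 bp at 21 or more.

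Strong peaks sat at gene starts. The rule accepted either end, and of the 1017 members with a coding gene of known strand, 1011 (99.4%, Wilson 95% interval 98.7 to 99.7) had the start as the nearest coding end, against 9299 of 12460 (74.6%, 73.9 to 75.4) of the other gene-end peaks. Intervals cover counting error only. Annotated starts are missing for chromosome 18 and for some other genes, so 150 members off chromosome 18 had neither a start within 1 kb nor a gene of known strand. A start of a gene of any kind lay within 1 kb of 1011 of 1177 members off chromosome 18 (85.9%, 83.8 to 87.8), against 9098 of 15176 other gene-end peaks (59.95%, 59.2 to 60.7).

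Summits of strong peaks kept close to the start, on both sides of it. Of the 1011 members with a start within 1 kb, 57.5% had the summit within 100 bp of it and 94.0% within 200 bp (92.3 to 95.3), against 46.0% and 71.5% (70.6 to 72.4) of the 9098 other peaks. The signed distance had a median of 21 bp downstream, with an SD of 128 bp, against 22 bp with an SD of 299 bp. The centre was thus alike and the spread narrower. The summits did not pile up on the start itself: in 50 bp steps, 16.02% lay from 50 bp before the start up to it, 10.4% in the first 50 bp after it, 17.5% in the next 50 bp and 16.2% in the 50 bp after that. Within the members, summits lay farther downstream at higher fold. The median signed distance was 7 bp at a fold of 15 to 18 (753 peaks with a start), 32 bp at 18 to 21 (202 peaks) and 88.5 bp at 21 or more (56 peaks). Below the threshold the order was the other way over most classes, with 45, 38.5, 24, 10 and 14 bp from the lowest fold class up. The SD was 125 to 128 bp over the member classes. Below the threshold it was 548 bp at a fold under 3 (854 peaks), then 362, 264, 192 and 153.5 bp in the classes up to 15.

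**Figure D2:**
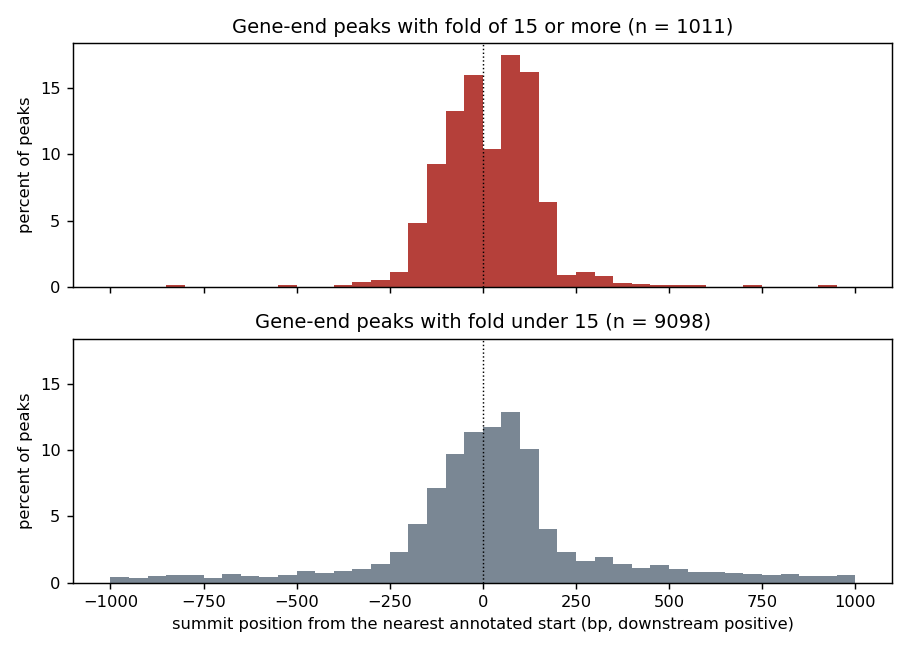
Percent of peaks by summit position from the nearest annotated gene start, in 50 bp steps with downstream positive, for the 1011 strong peaks with a start within 1 kb (top) and the 9098 other gene-end peaks (bottom). The strong peaks form a narrower distribution with a dip in the first 50 bp after the start (10.4%) between 16.02% and 17.5% on either side.

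Only 6 members lay nearest to a 3′ end among coding genes of known strand, and 2 of these had another gene's start close by. The peak at the 3′ end of Atraid, with a fold of 16.85, had its summit 28 bp from the start of Cad, the gene of the first enzymes of pyrimidine synthesis. The second strong peak of Zfp329, with 16.05, lay 206 bp from its 3′ end and 66 bp from the start of Zscan18. The other 4 lay at the peak between Bbs7 and Ccna2 (17.88, 923 bp from the Bbs7 3′ end), at Vamp3 and Gm38529 (16.65), at Fam120a (15.93) and at Cyp4f13 (15.68), the lowest of the 6 and named after its value was seen. Ccna2, which encodes cyclin A2, has no annotated start in the table, and its own end lies within 1 kb of that summit. Vamp3, a vesicle SNARE gene, has none either, and the summit lies 108 bp from its end. Whether these 2 peaks lie at the start of Ccna2 or Vamp3 cannot be told from the table.

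Some strong peaks lay at the ends of several genes. The summit lay at the end of 1 coding gene in 1017 members, of 2 in 191 and of 3 in 7. Off chromosome 18, 16.4% of members (193 of 1177, 14.4 to 18.6) had 2 or more coding genes, against 12.0% (11.5 to 12.5) of the other gene-end peaks. With a fold of 18 or 20 as the threshold the share over all chromosomes was 10.4% of 316 or 7.14% of 126 peaks. Both lay below the share of the other gene-end peaks. They rest on few peaks and carry no interval, so whether the direction changes with the threshold cannot be told. Coding starts on both strands lay within 1 kb of 139 members (11.8%, 10.1 to 13.8), against 683 of 15176 (4.5%, 4.18 to 4.84). These shares also count peaks without any start within 1 kb, which were more common among the other peaks. Of peaks with such a start, the counts were 139 of 1011 members and 683 of 9098 others. In 117 of these 139 members (84.2%) the paired genes pointed away from each other, as at a shared bidirectional promoter, against 86.2% of the other 683. The gap between such starts had a median of 135 bp (quartiles 67 to 276), against 165 bp (80 to 324). The summit lay between the paired starts in 76 of 139 members (54.7%, 46.4 to 62.7), against 48.3%. The annotation holds more starts for well-studied genes, and its part in these shares was not tested.

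Many strong peaks, but not all, stood alone in their neighbourhood. No other peak lay within 10 kb of 667 of the 1215 members (54.9%, 52.1 to 57.7), against 2850 of 15556 other gene-end peaks (18.3%, 17.7 to 18.9). The share climbed with fold over all gene-end peaks, through 3.66% at a fold under 3, 10.2%, 18.9%, 29.3% and 44.1% in the classes up to 15, to 51.7% at 15 to 18 and 65.2% at 18 to 21. At 21 or more it was 59.7% (43 of 72, 48.2 to 70.3), an interval that overlaps that of the class below. A second member lay within 10 kb of only 18 members (1.48%). The most neighbours of any member, 6, surrounded the Zmiz2 peak, a gene picked out after its value was seen. Fold is measured against a background that the sources used here do not describe, and whether nearby peaks enter it was not tested.

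**Figure D3:**
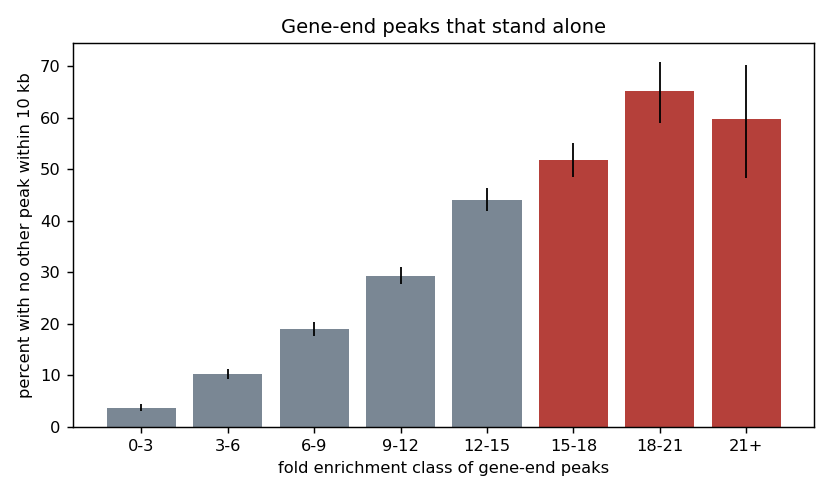
Percent of gene-end peaks with no other peak within 10 kb, by fold class, with members (15 or more) in red and Wilson 95% intervals as lines. The percent is 3.66 at a fold under 3 and 51.7, 65.2 and 59.7 in the 3 member classes.

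The promoters of member genes were CpG-rich. Over 1368 annotated promoters of member genes the median GC content was 59.3% (quartiles 53.3 to 65.0), against 60.3% for 12971 promoters of other genes with an end peak and 47.0% for 6924 promoters of genes without one. The CpG ratio had a median of 0.791 (0.633 to 0.922), against 0.708 and 0.204. A ratio of 0.6 or more, a usual limit for CpG islands, was held by 1074 member promoters (78.5%, 76.3 to 80.6), against 61.9% (61.05 to 62.7) of other genes with an end peak, 14.96% of genes without one and 47.7% of all 21263 coding promoters. Member genes thus had a GC content close to that of other genes with an end peak, pooled over all lower folds, and a higher CpG ratio. The ratio was not highest at the highest folds. Promoters were also classed by the highest fold of a peak within 1 kb of the start. The median ratio was 0.494 under 6, 0.748 at 6 to 9, 0.806 at 9 to 12 and 0.817 at 12 to 15. It was 0.81 at 15 to 18 and 0.77 at 18 or more.

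Motifs of ETS factors, NRF1, CREB, YY1 and ZNF143 were in a larger share of member promoters than of other promoters, by 1.5 times or more over all promoters. CCGGAAG was in 25.6% of the 1368 (23.3 to 27.96), against 14.0% (13.4 to 14.6) of promoters of other genes with an end peak and 11.6% of all promoters. GCATGCGC was in 9.65% (8.20 to 11.3), against 4.08% (3.75 to 4.43) and 3.52%. TGACGTCA was in 4.68% (3.68 to 5.93), against 2.72% (2.46 to 3.02) and 2.23%. AAGATGGCG was in 3.73% (2.85 to 4.87), against 2.44% (2.19 to 2.72) and 1.83%. ACTACAATT was in 24 promoters, 1.75% (1.18 to 2.60), against 0.555% (0.441 to 0.698) and 0.508%. ZNF143 and NRF1 had the highest ratios to all promoters, 3.45 and 2.74, but with a fold of 20 as the threshold ACTACAATT was in no member promoter and AAGATGGCG in 1.80%. At least 1 of the 5 motifs was in 40.3% of member promoters (37.7 to 42.9), against 21.5% and 17.8%. Of 13 motifs searched on both strands, these 5 overlapped another of the 13 in 0% to 2.05% of their matches. Nearby starts can count the same bases more than once, which the intervals do not allow for. With only member peaks at 1 coding gene, AAGATGGCG was in 2.92% of member promoters, nearer the 2.44% of other genes with an end peak. CCGGAAG, GCATGCGC, TGACGTCA and ACTACAATT were then in 24.7%, 10.1%, 4.59% and 1.56%. The other genes were not restricted in this way.

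The other 8 motifs differed in direction. The GC box GGGCGG, a site of Sp1, was in 58.4% of member promoters (55.8 to 60.99), against 60.1%, but among promoters with a CpG ratio of 0.6 or more it was in 66.3% (63.4 to 69.1), against 76.3% (75.4 to 77.2). The E-box CACGTG was in 9.28% (7.86 to 10.9), against 9.39%. TTTNNCGC, the E2F letters, was in 8.19% against 7.69%, and CTCGCGAG in 1.61% against 1.59%. CCAAT, bound by NF-Y, was in 42.4% (39.8 to 45.03), a larger share than the 36.7% (35.8 to 37.5). Promoters of genes without an end peak held it in 40.2% (39.1 to 41.4), which overlaps the member interval. Among promoters with a CpG ratio of 0.6 or more it was in 39.7% (36.8 to 42.6), against 36.5% (35.5 to 37.6), again with overlapping intervals. TATAAA, the letters of the TATA box, was in 6.21% (5.05 to 7.62), against 7.68% of other genes with an end peak and 12.6% of all. With a fold of 18 or 20 as the threshold it was in 8.57% or 12.6% of member promoters. These are matches anywhere in the window: the 94 in member promoters lay at a median of 165 bases before the start (quartiles 200 to 114 before). TGANTCA, the AP-1 site of activity-dependent genes, was in 3.36% (2.53 to 4.46), against 5.27% (4.89 to 5.66) and 6.99%. Among promoters with a CpG ratio of 0.6 or more that gap was not seen, with 3.26% against 3.35%, and with a fold of 18 or 20 as the threshold the member share was 5.40% or 9.01%. TTATGTAA, the D-box of clock output genes, was in 7 member promoters (0.512%), against 0.578%. Lipo3, Ldah, Zfp329 and Gorab were the members of highest fold with TATAAA.

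ETS, NRF1 and CRE letters were also in a larger share of member promoters when CpG-rich promoters were set against each other. Among promoters with a CpG ratio of 0.6 or more, CCGGAAG was in 28.5% of 1074 member promoters (25.9 to 31.3), against 19.3% (18.4 to 20.2) of 8027 promoters of other genes with an end peak. GCATGCGC was in 11.4% (9.60 to 13.4), against 5.94% (5.45 to 6.48). TGACGTCA was in 5.68% (4.45 to 7.23), against 3.64% (3.25 to 4.07). AAGATGGCG was in 4.38% (3.31 to 5.77), against 3.68% (3.29 to 4.11), so that the intervals overlapped. Within this class ACTACAATT was in 16 member promoters (1.49%, 0.919 to 2.41), against 0.660%.

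The share of promoters with the ETS and NRF1 letters climbed with fold and then levelled. Over promoters with a peak within 1 kb of the start, CCGGAAG was in 5.75% at a highest fold under 6, 12.9% at 6 to 9, 20.4% at 9 to 12, 26.0% at 12 to 15, 27.4% at 15 to 18 and 27.3% at 18 or more. It was in 2.67% of 7125 promoters without a peak. GCATGCGC went through 1.90%, 3.20%, 6.62% and 7.33% in the classes below 15 and was in 9.97% at 15 to 18 and 9.61% at 18 or more. For both motifs the climb began well below the threshold. TGACGTCA was in 4.30% at 12 to 15, 4.16% at 15 to 18 and 7.81% at 18 or more. ACTACAATT was in 0.870%, 1.84% and 0.901% of these classes. AAGATGGCG was in 0.734% under 6 and 2.31% at 6 to 9. Its share was then 4.01% at 9 to 12, 3.66% at 12 to 15, 4.07% at 15 to 18 and 4.5% at 18 or more. Its classes from 9 up had overlapping intervals. TATAAA ran against the climb of the ETS and NRF1 letters, from 24.2% of promoters without a peak to 5.03% at 15 to 18. At 18 or more it was in 7.81% (5.38 to 11.2). Matches in member promoters clustered near the start: the first base of CCGGAAG lay at a median of 26 bases before it (quartiles 87 before to 2 after), and that of GCATGCGC 53 bases before it. AAGATGGCG differed, with 53.8% of 52 matches downstream of the start and a median of 8 bases after it.

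**Figure D4:**
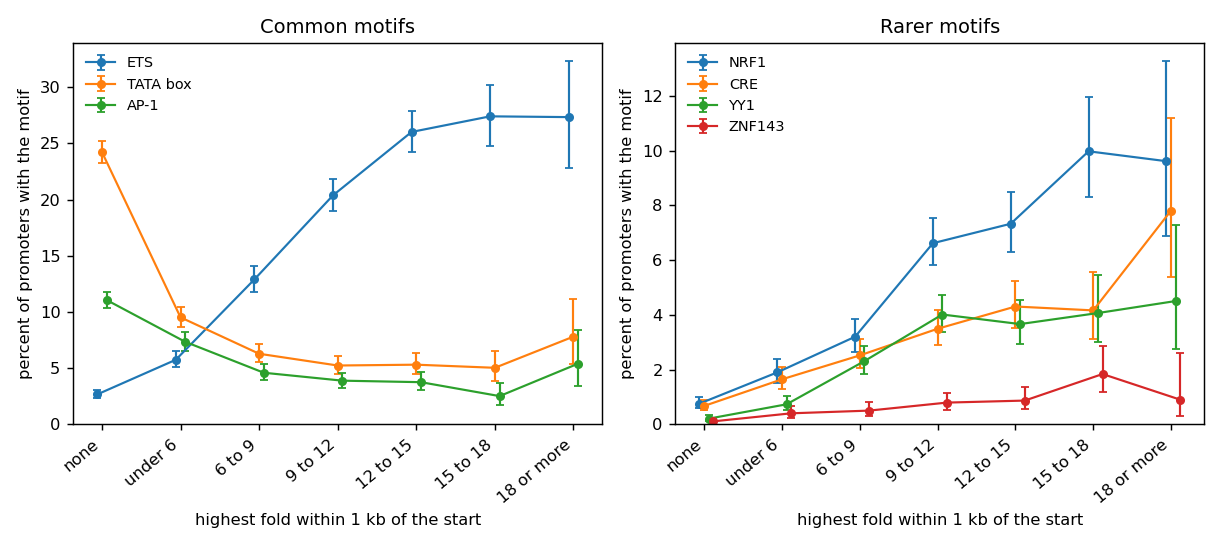
Percent of promoters holding each motif, by the highest fold of a peak within 1 kb of the start ("none" has no such peak), with Wilson 95% intervals; ETS, TATA box and AP-1 on the left, and NRF1, CRE, YY1 and ZNF143 on the right, on a separate scale. ETS climbs from 2.67% without a peak to 27.4% at a fold of 15 to 18, and the TATA box is highest, 24.2%, without a peak.

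Of the 23 family lists, those of the proteasome, the mitochondrial ribosome and oxidative phosphorylation had the largest shares of genes with a strong peak, beside the 6.47% of all coding genes. Proteasome genes had a strong peak in 15 of 48 cases (31.25%, 19.9 to 45.3), led by Psmg2, an assembly chaperone (19.92, at a peak shared with Cep76), Psmd14, the deubiquitinase of the lid (19.21), Psmb2 (18.15) and Psmd2 (18.01). Mitochondrial ribosomal genes had one in 21 of 78 (26.9%, 18.3 to 37.7), led by Mrpl44 (23.58, shared), Mrpl35 (21.78), Mrpl9 (21.39) and Mrpl15 (21.23). Oxidative phosphorylation genes had one in 23 of 96 (23.96%, 16.5 to 33.4). Among them were the cytochrome c oxidase subunit genes Cox7c (19.85) and Cox6c (19.53), and Uqcrb of complex III (18.5, shared with Gm10767). With peaks shared by several coding genes left out, the proteasome, mitochondrial ribosomal and oxidative phosphorylation shares were 22.9%, 20.5% and 15.6%. The 6.47% of all coding genes includes shared peaks. Among genes with any peak at an end, the median of the highest fold was 12.3 for proteasome, 12.5 for mitochondrial ribosomal and 11.9 for oxidative phosphorylation genes, against 8.69 for all. The order of the lists depended on the threshold. With a fold of 20 the proteasome, mitochondrial ribosomal and oxidative phosphorylation shares were 0.0%, 6.41% and 1.04%. With a fold of 12 they were 47.9%, 47.4% and 45.8%, below the 51.4% of aminoacyl-tRNA synthetase genes. The lists were read from the measure that chose the members, so these shares are descriptions.

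Genes of translation followed. Initiation factor genes had a strong peak in 11 of 56 cases (19.6%, 11.3 to 31.8), with Eif2s2 (20.72), Eif2a (18.73, shared with Serp1), Eif2s3x (18.65) and Eif3m (17.33) highest. Eif2s3x has a near-identical copy on chromosome Y, so its reads are uncertain. Aminoacyl-tRNA synthetase genes, which charge tRNAs, had 7 of 37 (18.9%, 9.48 to 34.2), led by Tars (19.34), Nars2 (18.51), Lars2 (17.57) and Lars (17.03). The cytosolic ribosomal genes had fewer, 10 of 89 (11.2%, 6.22 to 19.5), although Rpl27 (22.26), Rps16 (20.48), Rpl4 (20.16, shared with Snapc5) and Rpl21 (18.72) were high. The many processed copies of ribosomal genes make their reads uncertain. Chaperone genes had 10 of 85 (11.8%), led by Dnajc15 (16.88), Dnajc24 (16.71), Cct6b (16.32, shared with Zfp830) and Dnajc19 (16.15).

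Nuclear machinery varied by kind. RNA polymerase and general transcription factor genes had a strong peak in 20 of 105 cases (19.05%, 12.7 to 27.6), led by the Mediator gene Med23 (21.96), the TFIID gene Taf2 (19.93), Polr1b of RNA polymerase I (19.87) and Med12 (18.03). Zinc finger genes, mostly DNA-binding repressors in clusters, had 81 of 465 (17.4%, 14.2 to 21.1), the largest number of any list. Zfp329 (24.2), Zfp619 (22.43), Zkscan8 (22.1) and Zfp748 (21.44) led them, and close copies in these clusters may share reads. Splicing genes had 5 of 69 (7.25%, 3.13 to 15.9), led by Prpf8 (19.32), Prpf39 (18.83), Snrpa1 (18.57) and Prpf3 (16.31). Chromatin modifier genes had 4 of 68 (5.88%, 2.31 to 14.2): the H3K9 methyltransferase genes Setdb1 (21.67) and Setdb2 (19.29, shared), Brd9 (19.18, shared with Trip13) and Hdac2 (17.06). Cell cycle and replication genes had 11 of 103 (10.7%), led by Orc5 of the origin recognition complex (18.65), Ccng1 (18.64), Ccna2 (17.88) and Ccnc (17.42). The last 3 lists had intervals that included 6.47%.

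Traffic, ubiquitin and transport genes spanned the background. Vesicle traffic genes had a strong peak in 36 of 204 cases (17.6%, 13.03 to 23.5), led by the sorting nexin gene Snx11 (21.13), Sec11a of the signal peptidase (21.09), Vps41 of the HOPS tethering complex (20.91) and Rab39b (20.44), a neuronal Rab GTPase. Ubiquitin pathway genes had 18 of 189 (9.52%, 6.11 to 14.6), led by Cul2 (23.33), Usp14 (20.07), Fbxo47 (19.07) and Uba3 (18.36). Microtubule genes had 4 of 68 (5.88%): Dync2li1 (19.9), the mitotic kinesin genes Kif11 (15.24) and Kif20b (15.24), and Kif5b (15.17), a motor of axonal transport. Solute carrier genes had 15 of 375 (4.0%, 2.44 to 6.49), led by the mitochondrial carrier gene Slc25a53 (21.002), the zinc transporter gene Slc30a6 (20.33), the peroxisomal carrier gene Slc25a17 (18.11) and Slc35a1 (17.49), which carries CMP-sialic acid into the Golgi. All 4 are known as carriers of organelle membranes.

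Few genes of the ion channel lists had a strong peak. Voltage-gated and related channel genes had 3 of 170 (1.76%, 0.602 to 5.06): the sodium channel gene Scn9a (17.57), the chloride exchanger gene Clcn3 (16.12) and Trpc1 (15.27). Ligand-gated channel genes had 1 of 56 (1.79%, 0.316 to 9.45), the glycine receptor gene Glra3 (15.85). Protocadherins (0 of 69, upper bound 5.27%), interleukins and chemokines (0 of 137, 2.73%), keratins (0 of 53, 6.76%), Hox genes (0 of 39, 8.97%) and olfactory and vomeronasal receptors (0 of 1465, 0.262%) had none. The intervals of the ligand-gated channel, keratin and Hox lists include the 6.47% of all coding genes. Any end peak was found at 133 of the 170 channel genes, with a median of the highest fold of 5.39, and at 45 of 69 protocadherin, 63 of 137 interleukin and chemokine, 12 of 53 keratin, 2 of 39 Hox and 21 of 1465 receptor genes, beside 14386 of all 21887.

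Over 16 lists of tissue and cell-type genes, a single gene of 282 was a member (0.355%, 0.0626 to 1.98), although 197 had a peak at an end. That gene was Elavl4, which encodes the neuronal RNA-binding protein HuD. Its peak lay on chromosome 4 from 110350647 to 110352297, was 1651 bp wide, wider than the upper quartile of members, and had a fold of 16.48, a −log10 q of 368 and a summit 96 bp downstream of the start. Below the threshold lay, among others, Pomc, the melanocortin precursor gene (14.77), Syn1 of synaptic vesicles (13.3), the clock genes Clock (12.22) and Per3 (12.09), Rln3 (11.25) and the calcium sensor gene Syt1 (11.23). The median of the highest fold, over genes with an end peak, was 7.41 for pan-neuronal genes, 4.81 for hypothalamic neuropeptides, 4.35 for hypothalamic transcription factors, 4.71 for astrocyte, 3.88 for oligodendrocyte and 3.97 for microglial and for endothelial genes, against 8.69 for all coding genes. Each cell type is a fraction of bulk tissue, and the part of that fraction in these folds was not tested.

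**Figure D5:**
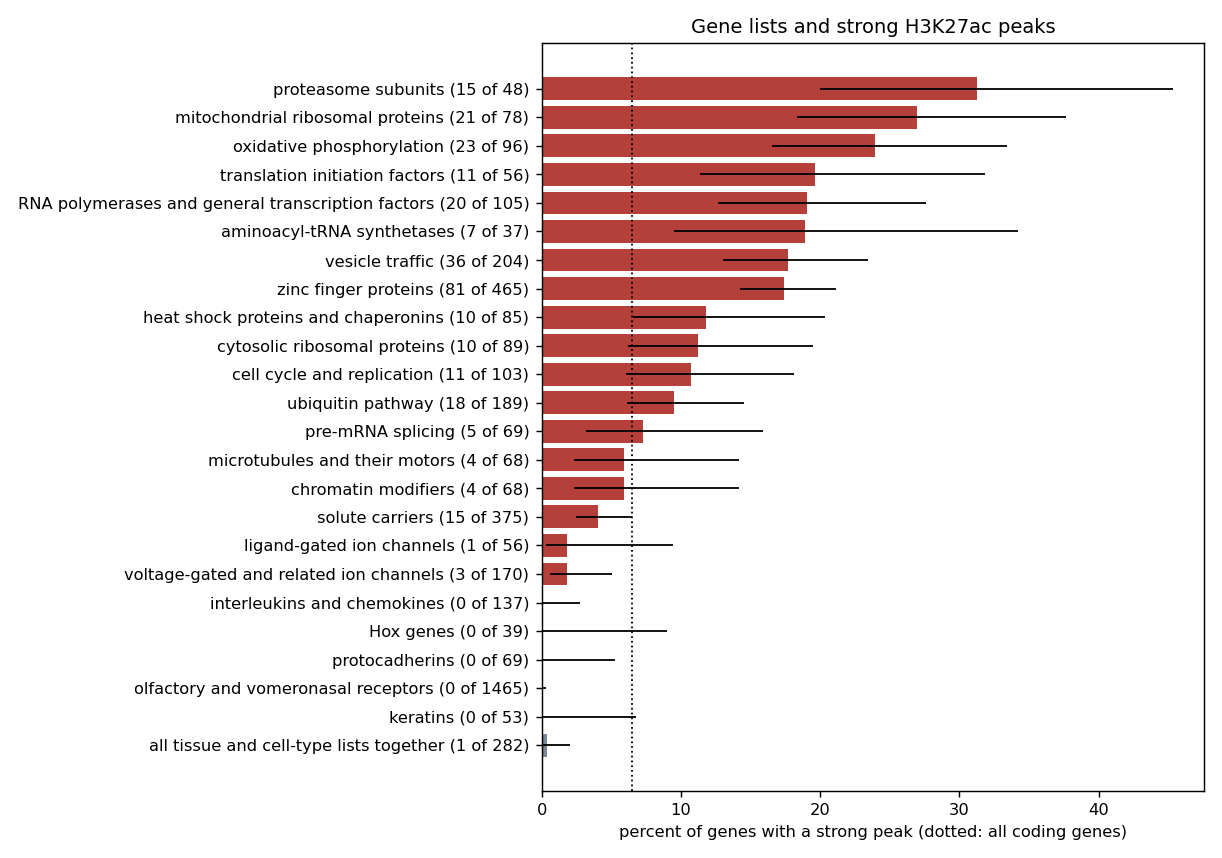
Percent of the genes of each list with a strong H3K27ac peak at an end, with Wilson 95% intervals as lines, members of all listed genes in brackets, and a dotted line at 6.47% for all coding genes. Proteasome genes are highest at 31.25%, and 1 of 282 tissue and cell-type genes has such a peak.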

How the data were processed

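H3K27ac was measured by CUT&Tag in 3 bulk hypothalamus samples, grouped by title with the 7 Paired-Tag DNA and 7 Paired-Tag RNA samples that were not used. Build mm10, the peak caller MACS2 (version not stated), STAR 2.7.10a, cutadapt 4.5, BWA 0.7.17 and UMI-tools 1.1.4 appear in the submitters' processing notes. The caller's settings and background, and how the samples were merged, are not given here. The deposited list gives each peak a summit position, a fold ratio and a −log10 q, all by the authors and read in narrowPeak column order. No column was left unmapped (0). Each fold is the authors' value for its peak and served only to choose, rank and describe peaks.

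Gene spans and promoters came from RefSeq tables of GRCm38.p6. Of 21887 coding genes, 17492 had an annotated start off chromosome 18, which gave strand; of 1416 member genes, 1175 did. Summits were matched to gene ends within 1 kb. CpG and motif content used 300-base promoters, all annotated starts of a gene included. Python 3.11.15, numpy 2.4.6, pandas 2.3.3, scipy 1.17.1 and matplotlib 3.10.9 were used. The scripts were tested on simulated data. Shares carry Wilson 95% intervals, no test over samples was possible, and depth is unknown. Alternatives were other folds, windows, gene sets and starts.

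The members and lists (23 gene families, by symbol pattern, and 16 tissue lists) were chosen with earlier results of these data known, and 5 further lists after the values were seen. Genes named were the 20 of highest fold, up to 4 leading members of a list, members of tissue lists, those nearest the threshold, the widest and narrowest, leaders of a motif and those at 3′ ends. Genes outside this rule are marked as such, and a few genes under it are not reported here.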

Additional observations from a re-analysis of the deposited data

How the results depend on the processing

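The fold threshold set the number of members and moved several of their features. With a fold of 12, 18 or 20 in place of 15 there were 3169, 316 or 126 member peaks and 3667, 351 or 135 genes. Their median width was 1135, 956 or 903 bp, and the median GC content of their promoters was 60.3%, 58.0% or 55.7%. At a fold of 18 or 20, 100.0% were nearest to a start, 10.4% or 7.14% lay at 2 or more genes, the median summit was 55.5 or 82.0 bp downstream of the start, and the CpG ratio was 0.768 or 0.767. At 12 a median of 1.0 other peak lay within 10 kb. A window of 2500 bp gave 98.4% nearest to a start and 19.7% at 2 or more genes. With only genes that shared no peak, GC was 58.7% and the CpG ratio 0.768; with only starts near a member summit, the ratio was 0.807. Of the shares by list, 53 moved beyond their interval and 103 did not. Many of the 103 came from lists without a member, whose share could hardly leave a wide interval, or from leaving out shared peaks. In family lists with several members, nearly all shares moved with the fold threshold, so the 103 do not show that list shares were stable. Of the motif shares, 19 moved and 46 did not. All 60 values by chromosome moved with the fold threshold. At a fold of 18 or 20 the share at 2 or more genes lay below that of the other gene-end peaks. AP-1 letters were then in 5.40% or 9.01% of member promoters, above the 5.27% of other genes with an end peak. These shares rest on few members and carry no interval, so a change of direction cannot be told. Over promoters with a highest fold of 18 or more near the start, AP-1 letters were in 5.41% (3.45 to 8.38), an interval that includes 5.27%. The cause was not tested. No paired analysis was possible because the 3 samples share a single list, and for the same reason no replicate could be left out. Unknown depth limits what the absence of a peak means.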

Other observations

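Further gene lists were chosen after the values were seen. Golgi and endoplasmic reticulum traffic genes had a strong peak in 14 of 42 cases (33.3%, 21.01 to 48.4), with Bet1, Yipf5, Gorab and Golga5 highest, and a median highest fold of 12.5. Genes of tRNA modification and processing had 12 of 53 (22.6%, 13.5 to 35.5), with Alkbh8 (23.83), Thg1l (18.76) and Qtrt2 (18.44, shared with Ccdc191) highest. DNA repair genes had 13 of 62 (20.97%, 12.7 to 32.6), where Xrcc4 (18.49, shared with Tmem167) and Xrcc5 (18.22) of end joining followed Exo1, Fancl and Mlh3. Nucleoporin genes had 4 of 27 (14.8%), Nup85, Nup107 (21.57), Nup54 (17.65) and Nup35 (16.16). Core autophagy genes had 2 of 31 (6.45%), Atg5 (18.23) and Atg12 (16.07, shared with Ap3s1). All were picked from the members, so the counts describe and nothing is read from them.

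Member peaks were unevenly spread over chromosomes. Chromosome 13 had 81 member peaks for 829 coding genes, 9.77 per 100 genes, and 13.0% of its gene-end peaks were members. Of its 42 zinc finger genes 15 had a strong peak, while chromosome 3, with 7.63 per 100, had none among 7. Chromosome 7, with the most zinc finger genes, 13 of 104 of them members, was lowest of the autosomes with 3.35 per 100 (68 peaks, 2030 genes). By share of gene-end peaks chromosome 15 was lowest of the autosomes, with 4.30%, against 5.33% for chromosome 7. Chromosome X had 4.04 per 100 genes but 8.25% of its gene-end peaks, above the 7.24% of the list, and chromosome Y had no member for 256 genes and 2 gene-end peaks. Gene clusters differ between chromosomes, and their part in these rates was not tested.

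A fold of 15 or more was also reached by 255 peaks away from coding gene ends. Of the 249 off chromosome 18, 117 (47.0%, 40.9 to 53.2) had an annotated start of some gene within 1 kb. Fold had a median of 17.01 among these 255 and width one of 988 bp, against 16.6 and 1060 bp among the members. Member genes had a median span of 25419 bp, against 22205 bp for other coding genes with an end peak and 7962 bp for those without.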
